A study of Homo sapiens with 6 samples.

Results

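Kinesins are motor proteins that use ATP to walk along microtubules or to take microtubules apart. The mitotic kinesins build the bipolar spindle, move and align chromosomes, and organise the midzone and midbody through which the daughter cells separate, whereas the transport kinesins carry vesicles, organelles, mRNA and ciliary components through the cytoplasm. Because many mitotic kinesins are transcribed mainly in the late cell cycle, their transcripts are commonly read as part of the proliferation programme of a tumour cell.

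The kinesin motor family was examined here in MDA-MB-231 cells, an established human triple-negative breast cancer (TNBC) cell line, treated with SCH, an aqueous extract of the herb Salvia chinensis Benth. Members were the protein-coding genes of the deposited tables whose symbol is KIF or KIFC followed by a number and, in some, a letter. This name rule found 42 genes among 58735 in all, of which 19951 were protein-coding. By their known roles, 14 were grouped as mitotic, 17 as transport kinesins and 11 as other kinesins (ciliary, signalling or mixed roles). The question addressed was whether the mitotic and the transport kinesins responded alike to SCH.

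The RNA sequencing covered 6 samples, 3 of cells given vehicle and 3 of cells given SCH at 100 mg/l, each for 24 h and in wild-type cells cultured in RPMI-1640 according to the labels. The methods of the study name DMEM for this cell line instead. The samples are described as biological repeats of a single cell line at a single dose and time. Their depth was 20291379, 18714240 and 18334857 gene counts in the vehicle samples and 16836369, 17979434 and 18414924 in the SCH samples. The cell line label was checked against marker genes. VIM (1406 ± 23.1 CPM, that is counts normalized for library depth, SD, n = 3), AXL (1562 ± 38.4) and CD44 (1000 ± 31.2) were abundant in the vehicle samples, whereas ESR1, PGR and CDH1, which mark luminal or epithelial breast cells, held 12, 0 and 14 counts summed over the 3 vehicle samples. The other luminal or epithelial markers, EPCAM (17.01 ± 1.23 CPM), GATA3 (13.7 ± 0.619) and FOXA1 (4.10 ± 0.650), were detected at a low level.

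A total of 31 kinesins had enough counts to be tested, namely 12 mitotic, 13 transport and 6 other kinesins. The remaining 11 were at or near 0. KIF4B, a near-identical intronless copy of KIF4A whose reads cannot be told apart with certainty, held 12 counts summed over the vehicle samples and 3 over the SCH samples. KIF25 held 8 and 4, KIF5A 5 and 6, KIF21B 1 and 3, KIF1A 0 and 2, and KIF6 0 and 1. KIF2B, KIF5C, KIF12, KIF19 and KIF26A held no count in any sample, which at this depth allows up to 0.148 to 0.178 CPM per sample (3 counts over the total gene counts without further scaling, counting error only). The neuronal heavy chains of conventional kinesin, KIF5A and KIF5C, and the axonal motor KIF1A were thus at the floor of detection in these cells.

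Before the values, the promoter sequences of the mitotic kinesins with the largest decreases are shown with that of KIF3B, a transport kinesin that rose, because transcription of many mitotic genes is known to depend on a CCAAT box and on a downstream element called the cell cycle genes homology region (CHR). The stretches were read from RefSeq on GRCh38.p14 upstream of the RefSeq start, each is printed 5′ to 3′ in the direction of its gene, and they were kept to at most 30 bases where they overlap annotated exons. The stretches of KIF20A, KIFC1 and KIF23 lie wholly within exons of GENCODE transcripts that start further upstream, and the other stretches hold no exonic base. Capitals mark CCAAT (or ATTGG, the same box on the opposite strand) and the CHR letters TTTGAA. The stretches lie at chr5:138179032-138179061 (KIF20A, plus strand), chr17:44947774-44947893 (KIF18B, minus strand), chr6:33391763-33391792 (KIFC1, plus strand), chr1:44739717-44739817 (KIF2C, plus strand), chr15:69414277-69414306 (KIF23, plus strand), chr16:29790631-29790718 (KIF22, plus strand), chr1:200620752-200620871 (KIF14, minus strand) and chr20:32277531-32277650 (KIF3B, plus strand).
KIF20A: gcttccctatctgATTGGccgaacgaacgc
KIF18B: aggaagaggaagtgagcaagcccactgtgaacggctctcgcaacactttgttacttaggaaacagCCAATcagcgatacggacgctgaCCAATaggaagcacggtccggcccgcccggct
KIFC1: tggcgacagcgacgATTGGtccctgcgtgc
KIF2C: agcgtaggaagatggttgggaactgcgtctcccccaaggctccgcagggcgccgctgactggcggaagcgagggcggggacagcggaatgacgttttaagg
KIF23: gggcgctgATTGGcccgTTTGAAatgcgcc
KIF22: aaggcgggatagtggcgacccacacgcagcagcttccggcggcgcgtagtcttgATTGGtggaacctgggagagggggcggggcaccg
KIF14: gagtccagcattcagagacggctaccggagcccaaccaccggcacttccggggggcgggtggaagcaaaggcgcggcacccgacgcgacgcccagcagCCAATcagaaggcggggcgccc
KIF3B: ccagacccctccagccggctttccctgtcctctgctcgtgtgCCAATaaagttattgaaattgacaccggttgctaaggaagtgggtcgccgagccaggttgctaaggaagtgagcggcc

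The CCAAT box was present in most of the mitotic kinesin promoters and in a minority of the transport kinesin promoters. On either strand of the 250 bases before the start, 10 of the 12 tested mitotic kinesins held CCAAT (83.3%), as did 3 of 10 tested transport kinesins with a promoter in the table (30%) and 41.4% of 10348 tested genes. A CHR, searched as TTTGAA or TTCGAA, was found in 6 of the 12 mitotic kinesins (50%), in 1 of the 10 transport kinesins, KIF5B, and in 13.3% of the tested genes. The 6 with a CHR were KIF4A, KIF11, KIF15, KIF18A, KIF22 and KIF23. Among all 35116 promoters of the table, 32% held CCAAT and 14.3% a CHR. An E2F-like word (TTTCCCGC, TTTCGCGC, TTTGCCGC or TTTGGCGC) was found in KIF15 alone among the mitotic kinesins, against 5.61% of tested genes and 2.79% of all promoters. A match is a description of these letters and no evidence of a bound factor, and windows without a match, such as that of KIF2C, say only that these letters are missing there.

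In vehicle-treated cells the most abundant kinesin transcript per gene length was KIF5B, the ubiquitous heavy chain of conventional kinesin, at 66.9 ± 6.14 FPKM (fragments per kilobase of gene and per unit of library size, SD, n = 3). KIF2C, the microtubule depolymerase of centromeres also known as MCAK, followed at 56.5 ± 1.05 FPKM, then KIFC3, a minus-end-directed motor of cell junctions and the Golgi, at 48.5 ± 3.37 FPKM. KIFC1, the minus-end motor that clusters centrosomes, had a level of 42.1 ± 1.75 FPKM, and KIF20A, which brings the chromosomal passenger complex to the spindle midzone, had 41.2 ± 0.507 FPKM. These last levels differed by less than their spread, so the order of KIFC1 and KIF20A was not resolved, and the same held for KIF14 and KIF18A at 9.31 ± 0.802 and 9.23 ± 0.316 FPKM. The mitotic kinesins KIF11 (25.8 FPKM), KIF18B (23.0), KIF22 (21.0) and KIF23 (19.8) were all above KIF3B (16.6 ± 0.953), while KIF13A, KIF3A, KIF3C and KIF1B lay close together between 3.72 and 3.92 FPKM. At the low end, KIF17 had 0.437 ± 0.074 FPKM and KIF26B 0.050 ± 0.010 FPKM.

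After SCH this order changed. KIF5B stayed first, at 65.5 ± 1.93 FPKM, followed by KIF2C (36.2 ± 0.462) and KIF1C (34.2 ± 2.07), which were not resolved from each other. KIF20A moved from rank 5 to rank 10, at 13.99 ± 0.799 FPKM, where it lay within the spread of KIF22 (14.2 ± 0.469) and KIF18B (13.3 ± 1.05). KIFC2 moved from rank 18 to rank 8, from 7.72 ± 0.803 to 16.4 ± 1.97 FPKM, and KIF3B moved from rank 11 to rank 5, at 26.5 ± 0.858 FPKM.

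Summed over each group in FPKM, the mitotic kinesins were lower in every SCH sample, while the transport kinesins overlapped between the groups. The summed level of the mitotic kinesins was 285, 283 and 284 FPKM in the vehicle samples and 188, 186 and 187 FPKM in the SCH samples. The summed level of the transport kinesins was 195, 202 and 201 FPKM in the vehicle samples and 214, 208 and 201 FPKM in the SCH samples. On this scale per gene length, mitotic kinesins exceeded transport kinesins in all vehicle samples and were below them in all SCH samples, with ratios of 1.46, 1.41 and 1.42 against 0.879, 0.895 and 0.929. In raw counts, the mitotic kinesins made up 43.4% ± 0.577 (SD, n = 3) of kinesin counts in the vehicle samples and 33.9% ± 0.580 in the SCH samples, and the transport kinesins 52.3% ± 0.633 and 61.2% ± 0.656, so that transport kinesins held more counts than mitotic ones in all 6 samples. Taken over the total gene counts alone, the transport sum was higher in every SCH sample than in every vehicle sample, so its overlap in FPKM depends on the scaling. The family as a whole took 0.294% ± 0.0033 of all gene counts in the vehicle samples and 0.271% ± 0.0054 in the SCH samples. No test was made on these sums, since the members are not replicates.

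**Figure D1:**
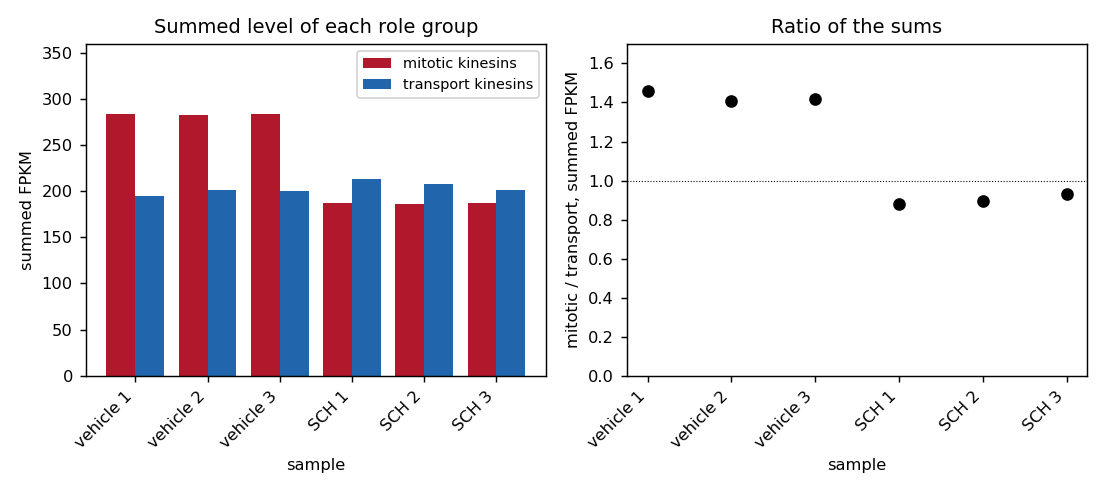
Left, summed FPKM of the 14 mitotic (red) and 17 transport kinesins (blue) in each of the 6 samples. Right, the ratio of both sums in each sample, with a dotted line at 1, above which all vehicle samples (1.41 to 1.46) and below which all SCH samples (0.879 to 0.929) lie.

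Differences between SCH and vehicle were tested gene by gene with edgeR's quasi-likelihood test on the counts of all 14736 genes that passed its filter on low counts, with Benjamini-Hochberg adjustment over all of them and a threshold of 0.05. The response was broad, so the counts for the kinesins are to be read against a high background: 58.7% of the tested genes were called, 29.4% lowered and 29.3% raised. Of the 31 tested kinesins, 14 were lowered, 9 were raised and 8 were not called, and their median log2 fold change was -0.12, against -0.0034 for all tested genes. Under scaling by library size alone, which moves the median of all genes to 0.099, 37.5% of the tested genes were raised and 22.4% lowered, and 21 kinesins were called. All changes below are relative to the scaling by TMM (trimmed mean of M values). Levels of single genes are given as CPM on this scaling and are compared only between samples.

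**Figure D2:**
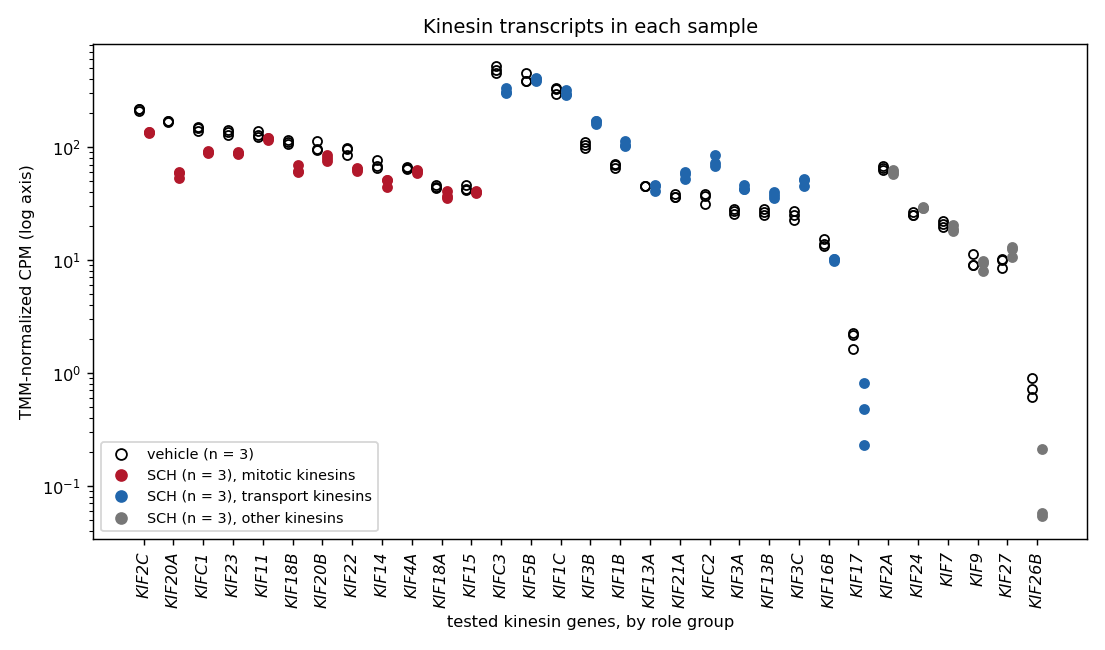
TMM-normalized CPM (log axis) of the 31 tested kinesins, by role group and by level, in the 3 vehicle samples (open circles) and the 3 SCH samples (filled circles). The SCH points of all 12 mitotic kinesins lie below the vehicle points, whereas those of 7 transport kinesins lie above and those of 3 below. Over all tested genes, the SCH values lie below without overlap in 31.3% and above in 31.1%.

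Among the mitotic kinesins, SCH lowered transcripts broadly but by very different amounts. Of the 12 tested members, 10 were lowered, none was raised and 2, KIF4A and KIF15, were not called, where the background is 29.4% lowered. No member had a fold change above 0, so none was raised at an unadjusted p under 0.05 either, and DESeq2 likewise called 10 lowered and 0 raised. All 3 SCH samples were below all 3 vehicle samples in 12 of the 12, against 31.3% of all tested genes. This count rests on the grouping by role. KIF2A, of the same kinesin-13 family as KIF2C, was placed among the other kinesins. Its samples overlapped between the groups, and it was not called (log2 fold change -0.12, edgeR adjusted p = 0.0944). The median log2 fold change of the group was -0.55, and its members ranged from -1.56 to -0.088. In RNA from bulk cultures, fewer cells in a phase of the cell cycle and less RNA per cell cannot be told apart.

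KIF20A (ENSG00000112984, chr5:138178719-138187715 on GRCh38, plus strand), the kinesin of the midzone and of cytokinesis also called MKLP2, changed the most among the mitotic kinesins. Its level was 169, 166 and 171 CPM in the vehicle samples and 53.1, 58.5 and 59.5 CPM in the SCH samples. The groups were far apart, with the highest SCH sample below every vehicle sample. KIF20A fell by 66.2%, a log2 fold change of -1.56 (SE 0.056, edgeR adjusted p = 1.6e-16), and only 1.85% of the tested genes had a lower fold change. It was the only mitotic kinesin lowered by at least 1 on the log2 scale, as were 4.88% of the tested genes. With 3 samples in each group, the exact two-sided permutation test cannot give a p below 0.1, the value that it gave for KIF20A.

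The other members of the midzone and cytokinesis group fell less. KIF23, the MKLP1 motor of the centralspindlin complex, was measured at 135, 127 and 141 CPM with vehicle and at 91.0, 89.3 and 87.3 CPM with SCH. Its groups did not overlap, and it fell by 33.7%. KIF14, which binds PRC1 and citron kinase at the midbody, had 67.9, 65.5 and 77.0 CPM with vehicle against 51.5, 51.2 and 43.8 CPM with SCH, a decrease that was again visible in every sample. KIF20B, a further cytokinesis motor, fell by 20.8%. The log2 fold changes were -0.59 for KIF23, -0.52 for KIF14 and -0.34 for KIF20B, and all passed edgeR's test (adjusted p = 1.9e-09, 1.3e-06 and 0.000118). By contrast KIF4A, the chromokinesin that sets the length of the midzone together with PRC1, had 65.1, 67.0 and 63.3 CPM with vehicle and 59.4, 61.2 and 63.1 CPM with SCH. The groups were apart by a narrow margin only, and KIF4A was not called (log2 fold change -0.088, SE 0.058, edgeR adjusted p = 0.199), with a value of 0.015 when scaled by library size alone.

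Among the remaining mitotic kinesins, which act on the spindle and on chromosomes, KIF18B, KIFC1, KIF2C, KIF22 and KIF18A were lowered. KIF18B, which limits the length of astral microtubules, had 111, 115 and 107 CPM with vehicle and 69.2, 61.6 and 60.3 CPM with SCH, a fall of 42.6% with no overlap. KIFC1 had 148, 150 and 139 CPM with vehicle and 90.5, 87.9 and 93.0 CPM with SCH, a fall of 37.9%. KIF2C had 215, 215 and 209 CPM with vehicle and 137, 134 and 137 CPM with SCH, a fall of 36.3%. In each of these genes all SCH samples were well below all vehicle samples. KIF22, a chromokinesin that pushes chromosome arms towards the spindle equator, fell by 32.6%, and KIF18A, which damps chromosome oscillations at metaphase, fell by 15.2%. The log2 fold changes were -0.80 for KIF18B, -0.69 for KIFC1, -0.65 for KIF2C, -0.57 for KIF22 and -0.24 for KIF18A, with edgeR adjusted p = 6.9e-11, 1.2e-10, 5.5e-11, 4.0e-08 and 0.0049. The call for KIF18A was lost when libraries were scaled by size alone (log2 fold change -0.13, edgeR adjusted p = 0.0994). KIFC1 and KIF22 share 12.7% and 13.01% of their exonic bases with other annotated genes.

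KIF11, the motor also called Eg5 that slides the spindle poles apart, and KIF15, which maintains the bipolar spindle beside it, moved little. KIF11 had 128, 123 and 138 CPM with vehicle and 119, 115 and 120 CPM with SCH. These groups were separated by less than the spread among the vehicle samples. The log2 fold change of KIF11 was -0.14 (SE 0.054, edgeR adjusted p = 0.0332), and its call was lost without vehicle replicate 1 (adjusted p = 0.0789), without vehicle replicate 3 (0.124) and without SCH replicate 1 (0.0561), 2 (0.173) or 3 (0.0723), as well as with library size scaling (0.614), with no filter beyond 1 count (0.104) and with limma on log2(FPKM + 1) (0.0613) or log2(FPKM + 0.1) (0.0611). KIF15 had 41.7, 42.5 and 46.1 CPM with vehicle and 39.6, 40.6 and 39.5 CPM with SCH, and it was not called (log2 fold change -0.12, SE 0.066, edgeR adjusted p = 0.118).

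**Figure D3:**
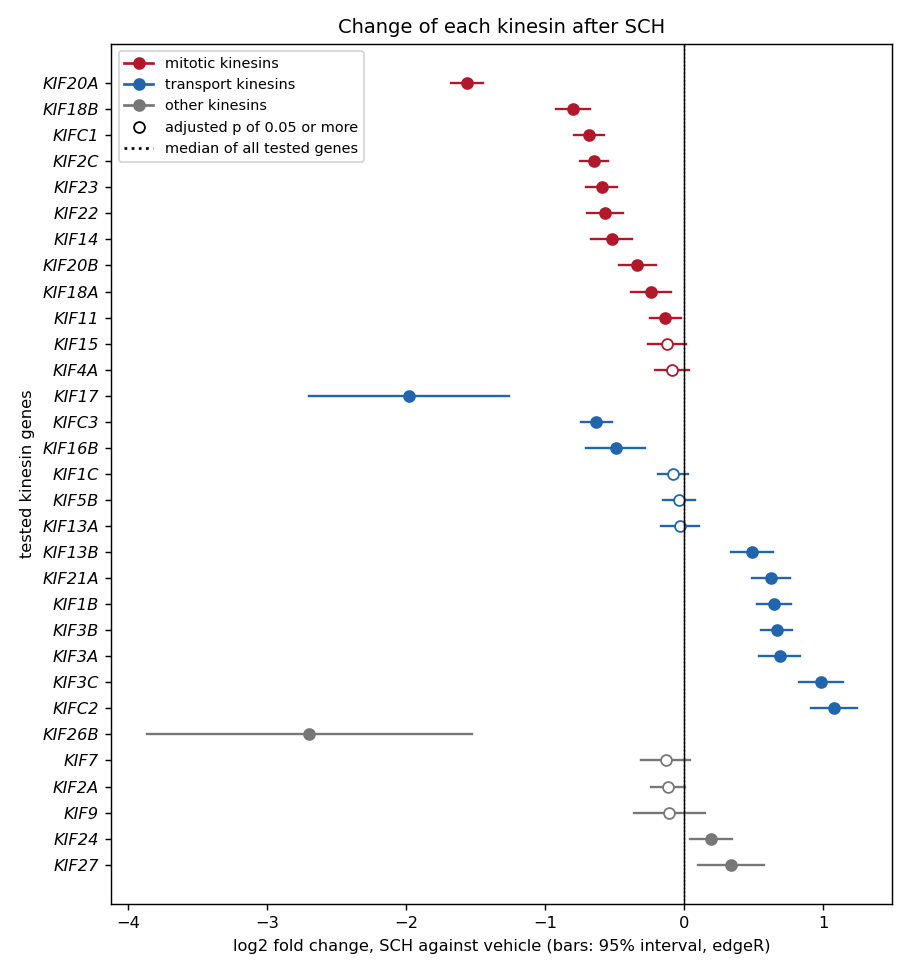
Log2 fold change of SCH against vehicle for the 31 tested kinesins, with 95% intervals from edgeR, in red for mitotic, blue for transport and grey for other kinesins. Open circles were not called, and the dotted line is the median of all tested genes. Mitotic kinesins lie between -1.56 and -0.088, and transport kinesins between -1.98 and 1.08.

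The transport kinesins split in both directions. Of the 13 tested members, 7 were raised, 3 were lowered and 3 were not called, against 29.3% raised and 29.4% lowered over all tested genes. The SCH samples were above the vehicle samples without overlap in 7 (background 31.1%) and below them in 3 (background 31.3%). Their median log2 fold change was 0.49. The members with the highest levels per gene length in vehicle-treated cells, KIF5B, KIFC3 and KIF1C, were not among those that rose, and the summed level of the group moved little, as given above.

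The heterotrimeric kinesin-2 motor of intraflagellar transport and membrane traffic rose in all of its motor subunits. KIF3A had 25.5, 27.0 and 28.5 CPM with vehicle and 45.9, 42.4 and 42.1 CPM with SCH. KIF3B (chr20:32277664-32335011, plus strand), its usual partner, had 98.8, 105 and 111 CPM with vehicle and 169, 170 and 161 CPM with SCH. KIF3C (chr2:25926596-25982749), the alternative partner of KIF3A, had 25.1, 26.8 and 22.7 CPM with vehicle and 50.8, 51.6 and 45.01 CPM with SCH. All SCH samples were above all vehicle samples in these 3 genes. The log2 fold changes were 0.69 (SE 0.071) for KIF3A, 0.66 (SE 0.054) for KIF3B and 0.98 (SE 0.077) for KIF3C, with edgeR adjusted p = 1.5e-08, 2.7e-10 and 1.5e-10. KIFAP3, the non-motor subunit that joins this motor to its cargo, rose from 26.1 ± 2.54 to 34.4 ± 1.95 CPM (log2 fold change 0.40, edgeR adjusted p = 0.000146). The remaining kinesin-2 gene, KIF17 (chr1:20664014-20718017), which forms a homodimeric motor of dendrites and cilia, went the other way. It had 44, 39 and 29 raw counts with vehicle and 4, 15 and 9 with SCH, so the groups were apart at a low level. Its log2 fold change was -1.98 with a 95% interval from -2.70 to -1.26 (edgeR adjusted p = 3.5e-05), and it was the only transport kinesin lowered by at least 1 on the log2 scale, though by only 0.37 with limma on log2(FPKM + 1), a scale that understates changes of low genes.

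Among the kinesin-3 motors of vesicles and endosomes, KIF1B and KIF13B rose. KIF1B, which carries mitochondria and synaptic vesicle precursors, had 64.7, 68.9 and 71.1 CPM with vehicle and 114, 105 and 102 CPM with SCH, a log2 fold change of 0.65 (edgeR adjusted p = 1.9e-09). KIF13B, a carrier of membrane proteins, had a log2 fold change of 0.49 (edgeR adjusted p = 4.3e-06). KIF16B, a motor of early endosomes, fell from 13.3, 15.4 and 13.8 CPM to 10.2, 10.2 and 9.78 CPM (log2 fold change -0.49, edgeR adjusted p = 0.00023, with a value of -0.29 by limma on log2(FPKM + 1)). KIF1C, which carries integrin vesicles and mRNA towards the cell edge, and KIF13A, which carries endosomal cargo, were not called, with log2 fold changes of -0.082 and -0.030 that turned to 0.022 and 0.073 when scaled by library size alone. For KIF1C the call depended on single libraries, since it passed the threshold without vehicle replicate 3 (log2 fold change -0.13, edgeR adjusted p = 0.0244) or without SCH replicate 1 (-0.12, edgeR adjusted p = 0.0498). The sign for KIF13A was also turned by leaving out SCH replicate 3 (0.031).

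Of the minus-end-directed kinesin-14 motors, KIFC2 and KIFC3 moved in opposite directions. KIFC2, described mainly in neurons, had 36.7, 38.5 and 31.4 CPM with vehicle and 85.0, 71.6 and 68.6 CPM with SCH. Its groups lay far apart, and at a log2 fold change of 1.08 (SE 0.080, edgeR adjusted p = 7.3e-11) it was the only kinesin raised by at least 1 on the log2 scale, as were 3.89% of the tested genes. KIFC2 shares 17.8% of its exonic bases with the neighbouring FOXH1, and whether reads were counted by strand is not given in the sources used here. KIFC3 (chr16:57758217-57863053) had 477, 517 and 451 CPM with vehicle and 331, 305 and 298 CPM with SCH, a fall of 35.4% (log2 fold change -0.63, edgeR adjusted p = 7.1e-10). The mitotic member of this family, KIFC1, fell by a similar amount, as given above, and the difference between these genes was not tested.

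Conventional kinesin, the motor with the most abundant transcript per gene length, was not called. KIF5B (ENSG00000170759, chr10:32009010-32056431, minus strand) had 386, 384 and 450 CPM with vehicle and 383, 408 and 399 CPM with SCH. The groups overlapped, with vehicle replicate 3 above all other samples. Its log2 fold change was -0.037 with a 95% interval from -0.15 to 0.078 (edgeR adjusted p = 0.589), and the sign turned when vehicle replicate 3 was left out (0.043) or when libraries were scaled by size alone (0.066). KIF21A, a kinesin-4 motor that slows microtubule growth, rose from 38.3, 35.8 and 36.1 CPM to 52.5, 58.1 and 59.5 CPM (log2 fold change 0.63, edgeR adjusted p = 2.8e-08).

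Of the 6 other kinesins tested, 2 were raised (33.3%, against 29.3% of all tested genes), 1 was lowered (16.7%, against 29.4%) and 3 were not called. KIF26B, an atypical kinesin of kidney development, held 12, 13 and 16 raw counts with vehicle and 1, 1 and 4 with SCH, so that its log2 fold change of -2.70 has a wide 95% interval from -3.87 to -1.53 (edgeR adjusted p = 0.00026). Without SCH replicate 3, which holds most of the SCH counts, the value was -3.58, and with limma on log2(FPKM + 1) it was -0.060 and not called (adjusted p = 0.183). KIF27, a paralogue of KIF7 in motile cilia, rose with a log2 fold change of 0.34 (edgeR adjusted p = 0.0155), a call that was lost without vehicle replicate 2 (0.0744) or SCH replicate 3 (0.0688). KIF27 shares 13.1% of its exonic bases with other annotated genes. KIF24, a depolymerase of centrioles that restrains the formation of cilia, had a log2 fold change of 0.19 (edgeR adjusted p = 0.026), which was lost without vehicle replicate 1 (0.0835), SCH replicate 2 (0.0528) or SCH replicate 3 (0.0524). KIF2A, KIF7 and KIF9 had log2 fold changes of -0.12, -0.13 and -0.11 and were not called. The sign for KIF9, which shares 17.9% of its exonic bases with neighbouring genes, depended on vehicle replicate 2.

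Among the mitotic kinesins, the decrease was smaller in genes with a longer genomic span. This comparison was added with the values known. KIF20A, the shortest of the tested ones at 9.0 kb, fell the most, while KIF15 and KIF4A, which span 111.7 and 130.7 kb and are the only tested mitotic kinesins over 100 kb, were not called. Across the 12 genes Pearson's r between log2 span and log2 fold change was 0.87, and it was 0.86 without KIF20A. The points share the same 6 libraries and genes are not independent replicates, so no test is given. No such relation was seen in the 13 transport kinesins (r = -0.20), nor in all 31 kinesins (r = -0.05). Over the tested protein-coding genes the direction was the opposite, and the longer ones were more often lowered. Of those over 100 kb, 40.9% were lowered and 25.6% raised. Of the shorter ones, 27.7% were lowered and 34.1% raised. The 4 mitotic kinesins with the smallest changes, KIF4A, KIF15, KIF11 and KIF18A, all hold a CHR match in the promoter windows described above, as do KIF22 and KIF23.

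**Figure D4:**
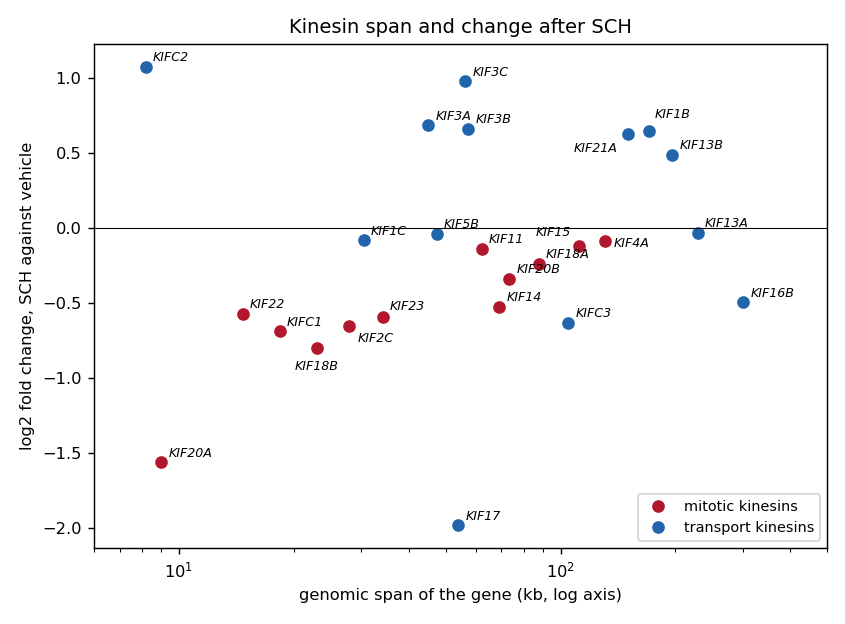
Log2 fold change of SCH against vehicle, plotted against genomic span in kb (log axis) for the 12 tested mitotic (red) and 13 tested transport kinesins (blue). The mitotic kinesins run from KIF20A (-1.56) at the short end to KIF4A (-0.088) at the long end, and the transport kinesins show no such order.

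Most listed partners of the mitotic kinesins at the spindle and the midzone were lowered. Of 26 genes, all tested, 20 were lowered (76.9%, against 29.4% of all tested genes), 1 (NUMA1) was raised and 5 were not called, with a median log2 fold change of -0.50. The call for NUMA1 (log2 fold change 0.16, edgeR adjusted p = 0.027) did not hold in every alternative tried, with an adjusted p of up to 0.157. PLK1, the mitotic kinase that docks on KIF20A at the midzone, fell from 164 ± 2.42 to 43.1 ± 2.60 CPM (log2 fold change -1.93, edgeR adjusted p = 8.5e-18). AURKA, the kinase of the spindle poles, fell from 260 ± 1.59 to 82.0 ± 2.58 CPM (-1.66, edgeR adjusted p = 1.0e-17), and CDCA8, the borealin subunit of the chromosomal passenger complex, fell from 168 ± 6.23 to 77.8 ± 0.600 CPM (-1.11, edgeR adjusted p = 2.2e-14). These 3 were the only genes of the list lowered by at least 1 on the log2 scale. CENPE, a kinetochore kinesin whose symbol falls outside the name rule, fell from 120 ± 12.4 to 79.7 ± 1.94 CPM (-0.59, edgeR adjusted p = 3.0e-08), while STARD9, a kinesin of the pericentriolar material, was not called (0.042, edgeR adjusted p = 0.75). PRC1 and NUSAP1, which share 58.4% and 62.2% of their exonic bases with other annotated genes, held only 65 and 495 counts summed over the vehicle samples and were not called.

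For the light chains and cargo adaptors of the transport kinesins, 9 were raised (40.9%, against 29.3% of all tested genes), 2 were lowered (9.09%, against 29.4%) and 11 were not called among 22 tested of 24 listed genes, with a median log2 fold change of 0.16. MAPK8IP1, the JIP1 scaffold that links cargo to the light chains, rose from 24.1 ± 2.15 to 46.8 ± 2.81 CPM (0.96, edgeR adjusted p = 1.9e-10), and KIDINS220, a membrane cargo of kinesin, rose from 53.8 ± 2.60 to 86.0 ± 3.30 CPM (0.68, edgeR adjusted p = 9.6e-10). DISC1, a scaffold that binds KIF5, fell from 4.38 ± 0.468 to 0.667 ± 0.201 CPM (-2.70, edgeR adjusted p = 3.1e-09), with a value of -0.34 by limma on log2(FPKM + 1), and it shares 20.5% of its exonic bases with a read-through gene. Of the light chains, KLC2 rose (0.41, edgeR adjusted p = 1.9e-06), whereas KLC1, KLC3 and KLC4 were not called. KLC1 shares 40.6% of its exonic bases with other annotated genes.

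The opposing motor, cytoplasmic dynein with its activator dynactin, had 11 raised, 4 lowered and 9 not called among 24 tested of 25 listed genes, with a median log2 fold change of 0.082. The called share of this list is near that of all tested genes (58.7%), with 45.8% raised and 16.7% lowered against 29.3% and 29.4%. The light chain DYNLT3 rose from 25.3 ± 3.53 to 42.0 ± 4.71 CPM (0.73, edgeR adjusted p = 3.5e-07) and the light chain DYNLL2 rose from 149 ± 5.60 to 192 ± 12.8 CPM (0.37, edgeR adjusted p = 3.0e-06). The dynactin subunit ACTR1B fell from 86.3 ± 6.33 to 61.5 ± 2.85 CPM (-0.49, edgeR adjusted p = 4.3e-07).

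Regulators of mitotic gene transcription were measured in the same samples, comprising factors that act on the promoters and others, such as CDKN1A, that act upstream of them. Of 22 tested, 11 were lowered (50%, against 29.4% of all tested genes), 5 were raised (22.7%, against 29.3%) and 6 were not called, with a median log2 fold change of -0.15, and without SCH replicate 2 the number called was 9 in place of 16. CDKN1A, the p21 inhibitor of cyclin-dependent kinases, rose from 103 ± 7.90 to 525 ± 10.6 CPM (2.34, edgeR adjusted p = 1.5e-19). RBBP4, a subunit shared by the DREAM and MuvB complexes that bind the CHR, fell from 121 ± 2.67 to 71.4 ± 3.66 CPM (-0.76, edgeR adjusted p = 4.0e-11), and E2F4, the repressive E2F of DREAM, fell from 156 ± 9.24 to 112 ± 4.00 CPM (-0.49, edgeR adjusted p = 5.9e-08). FOXM1, an activator of late cell cycle genes, fell by 0.32 on the log2 scale (edgeR adjusted p = 5.0e-06), and of the NF-Y subunits, which bind the CCAAT box together, NFYB and NFYC fell by 0.37 and 0.31 (edgeR adjusted p = 0.000488 and 7.9e-05) and NFYA was not called (-0.089, edgeR adjusted p = 0.144). MYBL2 and E2F1 were not called (0.092 and -0.039, edgeR adjusted p = 0.205 and 0.518). LIN54, the MuvB subunit that contacts the CHR, rose (0.46, edgeR adjusted p = 4.0e-05). LIN37 also rose (1.09, edgeR adjusted p = 0.00946), from 35 to 75 counts summed over the samples of each group. That call did not hold in every alternative tried (adjusted p of up to 0.0876), and LIN37 shares 54.0% of its exonic bases with other annotated genes. The part of these regulators in the change of the kinesins was not tested.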

How the data were processed

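RNA sequencing data of 6 samples were used, 3 with vehicle and 3 with SCH. The authors deposited a matrix of raw, unnormalized counts and, for each sample, FPKM values that were proportional to the count divided by gene length. Libraries were made from poly-T purified mRNA. The submitters' processing notes name CASAVA 1.8, HISAT2 2.0.5, featureCounts 1.5.0-p3, DESeq2 1.20.0 and GRCh38, and the strand setting is not given in the sources used here. All 58735 gene identifiers are in GENCODE release 29, which was used for spans and exon overlap.

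The counts entered edgeR 4.0.16 under R 4.3.3 (TMM normalization, filterByExpr, quasi-likelihood fit and test without covariates, Benjamini-Hochberg adjustment over 14736 genes, threshold 0.05). Depth ranged from 16836369 to 20291379 gene counts, and 3 counts were taken as the floor in a sample. Intervals and floors cover counting error or the spread between these samples only. Duplicate libraries were looked for and none were found. For single genes a two-sided permutation p was also enumerated exactly, with 0.1 as its lowest possible value. Promoters were those of RefSeq on GRCh38.p14, searched over 250 bases before each start, and 34 kinesin symbols had an entry. On data simulated for SCH against vehicle over 14560 genes, 168 of 193 changed genes were recovered (87%) and 5.08% of the calls were false. The simulation changed few genes and gave every gene the same dispersion, whereas 58.7% of the tested genes were called in the data. It therefore checks that the code runs as intended and does not measure the false calls among the reported ones.

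The members, the role groups and the lists (light chains and cargo adaptors, dynein and dynactin, spindle and midzone partners, transcription regulators, G1/S phase genes, cell type markers) came from general knowledge and were chosen with earlier results of these data known. Every kinesin found by the name rule was accounted for. All tested mitotic and transport kinesins were named, as were the changed other kinesins and, from each list, the 3 changed genes with the smallest p. Further names (kinesin-associated subunits, FOXM1, MYBL2, E2F1, LIN37, LIN54, NF-Y subunits, PRC1, NUSAP1, NUMA1 and the uncalled kinesins) were added after their values were seen. The alternatives tried were DESeq2 1.42.0 on the counts, limma-trend (limma 3.58.1) on log2(FPKM + 0.1) or log2(FPKM + 1), scaling by RLE factors or by library size alone, filters of at least 1 count in any sample or 10 in each, a replicate block, omission of single replicates, and stricter calls (adjusted p of 0.01, or a change of at least 1 on the log2 scale). Figures were drawn with matplotlib 3.10.9 in Python 3.11.15. The experiments of the study on proteins, single compounds and animals were not analysed here. Some genes of these lists are not reported here by name.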

Additional observations from a re-analysis of the deposited data

How the results depend on the processing

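Of the 31 kinesin fold changes, 21 had the same sign and the same call under each alternative of scaling, filter, test, block or left-out replicate in which they were tested, the stricter calls set aside. KIF17, counted among them, was not tested with at least 10 counts in every sample, and its log2 fold change of -1.98 shrank to -0.37 with limma on log2(FPKM + 1). The signs that turned belonged to uncalled genes. With library size only, KIF5B was at 0.066, KIF1C at 0.022, KIF4A at 0.015 and KIF13A at 0.073. With each replicate left out in turn, KIF5B ranged from -0.073 to 0.043 (highest without vehicle replicate 3), KIF13A from -0.056 to 0.031 (highest without SCH replicate 3) and KIF9 from -0.16 to 0.0036 (highest without vehicle replicate 2). The cause was not tested.

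A minimum change of 1 on the log2 scale left 1292 of all genes (573 raised, 719 lowered) and 4 kinesins, namely 1 mitotic (1 lowered), 2 transport (1 raised, 1 lowered) and 1 other (0 raised), with 1 light chain or adaptor gene, 0 dynein or dynactin genes, 3 spindle partners, 2 regulators and 0 G1/S phase genes. An adjusted p of 0.01 left 1 other kinesin called and 0 raised. With at least 10 counts in every sample, which leaves out KIF17 and KIF26B, 21 kinesins were called and 2 transport kinesins lowered. Because KIF26B is so low, 0 other kinesins were lowered with at least 10 counts in every sample or with limma on log2(FPKM + 1). The median log2 fold change of the mitotic kinesins was -0.44 with library size only and -0.49 with limma on log2(FPKM + 1). That of the transport kinesins was 0.59 with library size only, 0.55 with at least 10 counts in every sample and 0.36 with limma on log2(FPKM + 1). With each replicate left out in turn, these medians ranged from -0.57 to -0.50 and from 0.45 to 0.54, the other kinesins called from 1 to 3 and raised from 0 to 2, and the regulators called from 9 to 15. The fit with the replicate number as a block (replicate block) called 23 kinesins and 8705 genes in all, and it changed no call of a kinesin. The numbers gave no sign of pairing the samples, since samples with the same number deviated together with correlations of only 0.046, -0.022 and 0.022 across 14736 genes.

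The 3 samples in each group come from a single cell line, dose and time. Low counts limit KIF17 and KIF26B, whose intervals are wide, and the 11 kinesins at or near 0 could not be compared.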

Other observations

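Genes of the G1/S transition, which act earlier in the cell cycle than the mitotic kinesins, did not all move in 1 direction. Of 24 listed genes, all tested, 12 were lowered (50%, against 29.4% of all tested genes), 4 were raised (16.7%, against 29.3%) and 8 were not called, with a median log2 fold change of -0.12. The replicative helicase subunits MCM5 and MCM6 fell from 169 ± 8.24 to 90.9 ± 2.65 CPM (log2 fold change -0.89, edgeR adjusted p = 1.5e-12) and from 139 ± 5.19 to 81.7 ± 3.06 CPM (-0.77, edgeR adjusted p = 2.2e-11). GINS2, a further subunit of the helicase, fell from 54.2 ± 1.45 to 28.5 ± 1.46 CPM (-0.93, edgeR adjusted p = 3.7e-11). The 4 raised genes were the cyclins CCNE1 (0.68, edgeR adjusted p = 3.5e-07) and CCNE2 (0.67, edgeR adjusted p = 5.5e-05), the ribonucleotide reductase subunit RRM2 (0.43, edgeR adjusted p = 2.9e-07) and the sliding clamp PCNA (0.12, edgeR adjusted p = 0.0287, a call that was lost without vehicle replicate 1 or without SCH replicate 3, with an adjusted p of up to 0.0941), named after their values were seen. CCNE2 and RRM2 share 37.1% and 20.2% of their exonic bases with other annotated genes.

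Of the markers expected in MDA-MB-231 cells, 5 of 6 were lowered after SCH, against 29.4% of all tested genes, and CD44 was not called. CAV1 fell from 435 ± 18.9 to 193 ± 19.0 CPM and AXL from 1562 ± 38.4 to 870 ± 22.3 CPM (log2 fold changes -1.17 and -0.84, edgeR adjusted p = 8.9e-14 and 2.5e-13). Among the 6 luminal and epithelial markers, GATA3 and EPCAM fell, FOXA1 rose from 4.10 ± 0.650 to 9.18 ± 1.11 CPM, and ESR1, PGR and CDH1 were too low to test. Of the leukocyte and endothelial markers, PTPRC held 110 counts summed over the vehicle samples and 16 over the SCH samples, CD14 and PECAM1 were not called, and CD3E and CDH5 held at most 2 counts in either group. The part of these markers in the change of the kinesins was not tested.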
